A study of Mus musculus with 10 samples.

Results

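The nuclear-encoded genes of oxidative phosphorylation were followed across cell classes and conditions of the mouse pituitary. They were taken by their symbols alone, as those that begin with Nduf, Uqcr, Cox4 to Cox8 or Atp5, together with Sdha, Sdhb, Sdhc and Sdhd (the gene set itself was proposed with earlier results of these data known). This gave 100 of the 44288 gene symbols in the tables. By name, 47 belonged to complex I, 4 to complex II, 10 to complex III, 18 to complex IV and 21 to complex V. By role, 82 were subunits, 9 assembly factors, 2 associated proteins (Cox7a2l and Atp5s) and 7 pseudogenes. All 100 had at least 1 UMI, a counted molecule, in a kept cell of some library, and 88 had at least 100 UMIs on either platform.

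Complexes I to IV of the inner mitochondrial membrane pass electrons from NADH and succinate to oxygen. Complexes I, III and IV pump protons, complex II does not, and complex V, the ATP synthase, lets the protons back to make ATP. Most subunits are encoded in the nucleus and imported, whereas the mitochondrial genome encodes a few core subunits of complexes I, III, IV and V and none of complex II. Hormone-secreting cells use ATP for the synthesis, packaging and release of peptide hormones. Single-cell counts measure mRNA, and neither complex abundance nor respiration was measured here.

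Pituitary cells of CD1 mice had been counted in 10 libraries. On the 10X Genomics platform there was 1 library of WT 8-week females and 1 of WT 8-week males. By Drop-seq, which captures cells with barcoded beads in droplets, there were 2 libraries of WT 8-week females, 2 of WT 8-week males, 1 of WT 13-week virgin females, 2 of WT 13-week lactating females and 1 of 8-week females with the mt/hGRF transgene. This transgene drives human growth hormone releasing hormone from a metallothionein promoter, which is not limited to the cells that normally make it, and that group is a single library. Per the study's methods, 2 mice went into the mt/hGRF library and into each Drop-seq library of WT 8-week animals. Per its results, 2 mice went into 1 of the lactating libraries. A library is thus often a pool of animals, though the study's counts of mice differ between its passages. All cells had been dissociated without enzymes. Replicates of a group are separate libraries. For sex, p-values measure the spread between libraries of the same sex and platform together with how the sex difference varied between platforms. For lactation and the transgene they measure the spread within the groups of all Drop-seq libraries. Between classes they measure how the difference within a library varied over libraries, which are of both platforms and several conditions. Each spread may be in part technical.

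The study's limits on UMIs, genes and mitochondrial share kept 978 to 5256 cells per library, with a median of 534 to 1246 UMIs. The Drop-seq clusters that the study then removed as low quality, doublets, red blood cells or NK cells were not taken out here. The limit of 10% on the mitochondrial share removed 38.7% of the barcodes with enough UMIs and genes in the mt/hGRF library and 6.95% to 20.4% in the others. Of kept barcodes, the 10X libraries shared 6 and no other pair of libraries shared more than 1. Levels below are UMIs per 10000 UMIs of a library and class, with the 7 hormone genes (Gh, Prl, Pomc, Tshb, Lhb, Fshb and Cga) removed from counts and totals, because hormones took 11.8% to 26.2% of all UMIs. A level is therefore a share of the RNA counted and not an amount per cell.

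Cells were assigned to a class by the marker list whose count most exceeded its rate in the library (Poisson tail), with no OXPHOS, mitochondrial or hormone gene among the markers, and 30.8% to 62.1% of kept cells passed. Between 6.38% and 14.5% of those lay near the limit, with a tail above 0.01 where the limit was 0.02. The hormones, which the gate did not use, gave a check. Gh was higher in cells of the somatotrope gate (Som) than in cells of the lactotrope gate (Lac) in 10 of 10 libraries, and Pomc was higher in the melanotrope gate (Mel) than in Som in 10 of 10. Prl was higher in Lac than in Som in 9 of 10 libraries, the exception being the 10X female with 442 per 10000 UMIs in Lac against 660 in Som. Medians over libraries were 504 Prl UMIs per 10000 UMIs in Lac and 219 in Som. The checks of Lac against Som and Stem/FS cells counted all 10 libraries, among them Drop-seq male replicate 1, where Lac held under 20 cells. For Lac the check was mixed. Prl was higher in Lac than in Stem/FS cells in 8 of 10 libraries, and cells of the stromal gate, not compared otherwise, had more Prl than Lac cells in 5 of 9 libraries, for example 2772 against 226 in the 10X male and 2360 against 1168 in the virgin library. Gh exceeded Prl in the Lac cells of the 10X male (684 against 226), the mt/hGRF library (520 against 495) and male replicate 2 (461 against 442). It also did so in a further library, where Gh in Lac cells reached 1770, above the highest Prl level in Lac cells of any library (1374). Lac therefore names the cells by the markers of the gate. The other classes compared were the gonadotrope (Gona), stem or folliculostellate (Stem/FS) and macrophage (MacPh) gates. Som held 128 to 597 cells per library, Mel 40 to 290, MacPh 46 to 228, Stem/FS 26 to 96, and, where compared, Lac 23 to 240 and Gona 24 to 71. A class entered with at least 20 cells in a library, which left out Lac in Drop-seq male replicate 1 and Gona in Drop-seq female replicate 1 and male replicate 1. Gh was also counted in MacPh cells, at 9.19 to 449 per 10000 UMIs, and in Stem/FS cells, at 265 to 1336 and above Som in 1 of 10 libraries. The part of mixed droplets in this was not tested, and free RNA estimated from hormone UMIs in MacPh cells made up 1.95% to 31.6% of a library. Corticotrope markers passed that minimum in 1 library and were not compared.

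The promoters of the genes are shown first, as background. Whether motif matches go with the levels below was not tested. RefSeq promoters (GRCm38.p6, 250 bases before to 50 after the start) were found for 74 of the 100 genes. Motifs of factors known to regulate nuclear genes for mitochondrial proteins were searched on both strands. The core of the NRF1 site, GCATGCGC, was present for 12 of the 74 genes, or 16.2%, and in 2.71% of all 32851 promoters. The ETS core bound by GABP, CCGGAAG, was present for 18 genes (24.3%), against 8.86% of all promoters. The YY1 motif AAGATGGCG was present for 8 genes (10.8%), against 1.40% of all promoters. At least 1 of the motifs lay in the promoters of 31 genes (41.9%) and in 12.1% of all promoters. A match is a string of letters and not a measured site, and binding was not measured. Printed below, as the named genes with most kinds of match among those lower in Lac and higher in Stem/FS and MacPh cells, are a complex IV subunit (Cox6a1) and a complex III subunit (Uqcr11), each with an NRF1 and an ETS match. The last is the complex I assembly factor Ndufaf4, whose values stood apart from the other members. They run 5′ to 3′ in the direction of transcription, and capitals mark the motif matches.
Cox6a1, chr5:115348909-115349208, minus strand: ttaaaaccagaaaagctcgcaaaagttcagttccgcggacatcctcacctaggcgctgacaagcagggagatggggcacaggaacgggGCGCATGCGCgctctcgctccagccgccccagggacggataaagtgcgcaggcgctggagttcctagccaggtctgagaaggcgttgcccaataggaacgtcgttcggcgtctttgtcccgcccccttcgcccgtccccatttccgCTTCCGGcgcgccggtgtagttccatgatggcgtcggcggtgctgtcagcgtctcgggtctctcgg
Uqcr11, chr10:80406772-80407071, minus strand: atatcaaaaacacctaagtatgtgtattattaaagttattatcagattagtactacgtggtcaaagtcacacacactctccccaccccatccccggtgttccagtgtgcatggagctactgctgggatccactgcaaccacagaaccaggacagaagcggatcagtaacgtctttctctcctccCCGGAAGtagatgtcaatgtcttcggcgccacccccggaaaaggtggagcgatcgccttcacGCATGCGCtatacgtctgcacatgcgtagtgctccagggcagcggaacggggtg
Ndufaf4, chr4:24897833-24898132, plus strand: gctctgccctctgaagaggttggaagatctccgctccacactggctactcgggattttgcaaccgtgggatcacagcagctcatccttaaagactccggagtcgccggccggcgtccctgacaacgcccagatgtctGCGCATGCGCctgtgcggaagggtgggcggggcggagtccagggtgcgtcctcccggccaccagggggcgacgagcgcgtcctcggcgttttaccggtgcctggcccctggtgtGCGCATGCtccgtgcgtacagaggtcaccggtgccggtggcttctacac
Cox6a1 held 2 NRF1 matches, which overlap because the site is nearly palindromic, and 1 ETS match. Uqcr11 held 1 of each. Ndufaf4 held 3 NRF1 matches, of which 2 overlap, and no ETS or YY1 match. The YY1 motif was absent from these 3 windows.

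The platforms counted many of these genes at different levels, so levels are compared between libraries of a platform or within a library. Of the 88 genes with at least 100 UMIs on either platform, 49 had mean levels within 2-fold of each other. For 8 genes the 10X mean was more than 5 times the Drop-seq mean, and for 3 the reverse held. Atp5g2, which encodes the c subunit of the ATP synthase rotor ring, was at 6.33 and 9.86 per 10000 in all kept cells of the 10X libraries and at 0.0355 to 0.138 in the 8 Drop-seq libraries. Atp5l, subunit g of the same complex, was at 6.64 and 9.95 against 0.0700 to 0.319. Cox7c, a small complex IV subunit, was at 9.77 and 14.4 against 0.770 to 1.66. In each of these 3 genes the platforms did not overlap. The other c subunit genes differed less, with Atp5g1 7.72 times and Atp5g3 3.49 times as high on 10X by the ratio of means. Of the 13 protein-coding mitochondrial genes, 7 had at least 94 UMIs on each platform, and the other 6 had 191 to 35735 UMIs on 10X and 0 to 10 in all Drop-seq cells.

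**Figure D1:**
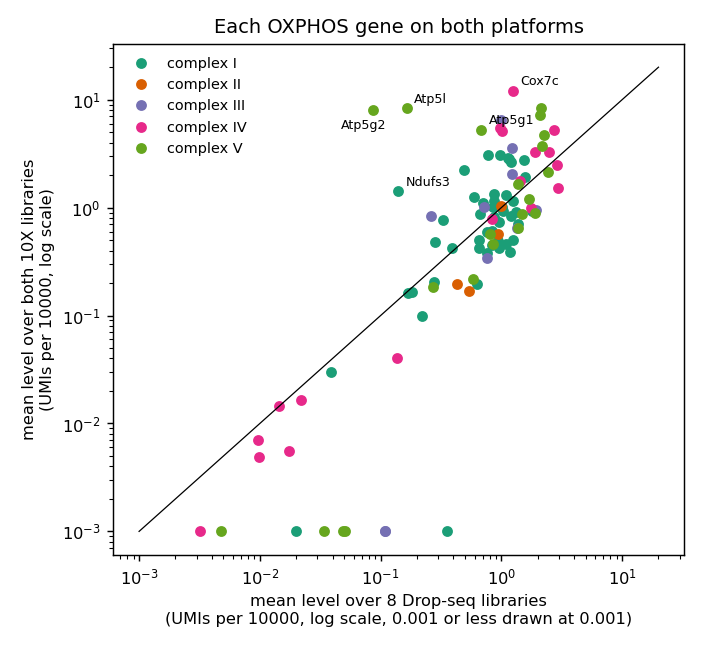
Mean level of each of the 100 genes in all kept cells, over the 8 Drop-seq libraries (x axis) and over the 10X libraries (y axis), in UMIs per 10000 non-hormone UMIs on log axes, coloured by complex, with the line of equality. Atp5g2 and Atp5l lie far above the line, at 8.10 against 0.0867 and 8.30 against 0.165.

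The Drop-seq tables fell into a set of 5 with under 30000 symbols (mt/hGRF, virgin, both lactating and female replicate 1) and a set of 3 with over 30000 (male replicate 1, female replicate 2 and male replicate 2). Of the 88 genes with at least 100 Drop-seq UMIs, 9 (10.2%) had levels that did not overlap between the sets, beside 14.3% of all 12912 genes with as many UMIs, so that the members did not exceed the share of all genes. Atp5g3 ran from 1.07 to 1.61 in the smaller tables and from 2.02 to 5.31 in the larger ones, and Ndufs8, an iron-sulfur subunit of complex I, from 0.544 to 0.957 and from 1.53 to 2.33. Ndufaf4 was higher in the smaller tables, at 1.14 to 1.64 against 0.810 to 1.10. The sets also differ in condition, whose part in these values was not tested.

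Tissue-restricted isoforms were nearly absent. Cox4i2 had 5 UMIs in all kept 10X cells and 11 in all Drop-seq cells, against levels of Cox4i1 between 1.94 and 3.88 per 10000 in the Drop-seq libraries. Cox6a2, the heart and muscle isoform, had 4 and 27 UMIs, Cox7a1 12 and 28, Cox8b 4 and 13, and Ndufa4l2 22 and 47. Cox6b2, known from testis, had 31 and 203. Such low counts limit what can be said of a gene in any one class, and they are counting values without a test.

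The summed level of the 100 genes was lower in the other hormone cell classes than in Som cells of the same library, and higher in most Stem/FS and all MacPh samples. In Som cells the 10X libraries had 138.5 (female) and 134.6 (male) per 10000, and the Drop-seq libraries had 95.4 (mt/hGRF), 128.7 (virgin), 72.3 and 98.3 (lactating replicates 1 and 2), 88.4 and 109.2 (female replicates 1 and 2) and 102.7 and 88.1 (male replicates 1 and 2). In Lac cells the 10X values were 49.6 and 49.0 and the Drop-seq values 46.5 to 67.9, and within each of the 9 libraries the Lac level was the lower of the pair. The median ratio of Lac to Som was 0.513, with a range of 0.358 to 0.768. Mel cells stood at 42.9 to 86.9 and below Som in 10 of 10 libraries (median ratio 0.633). Gona cells stood at 39.4 to 75.4 in 7 libraries and at 127.8 in the virgin library, which stood apart, and they were below Som in 8 of 8 (median ratio 0.60, highest 0.993 in the virgin library). Stem/FS cells were above Som in 9 of 10 libraries, at 102 to 292 and a median ratio of 1.74, and MacPh cells in 10 of 10, at 111 to 162 and a median ratio of 1.48. Over the 8 Drop-seq libraries the mean was 97.9 ± 16.7 in Som and 143 ± 14.7 in MacPh (SD, n = 8), and over 7 libraries it was 55.4 ± 7.82 in Lac (SD, n = 7). By complex, the median ratios of Lac to Som were 0.509 for complex I, 0.666 for II, 0.425 for III, 0.445 for IV and 0.557 for V. In MacPh the medians were 1.31, 1.59, 1.65, 1.78 and 1.36, with complex I above Som in 7 of 10 libraries. Cells of the red blood cell gate had 10.8 to 33.1 in the 6 Drop-seq libraries with enough cells. Their own globin markers took 6170 to 8584 per 10000 of the same totals, which lowers the share left for any other gene. This level is therefore not comparable with those of the other classes. Barcodes below the cell limits held 239 and 244 per 10000 on 10X and 60.0 to 147 in the 7 Drop-seq libraries with more than 8 such barcodes.

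**Figure D2:**
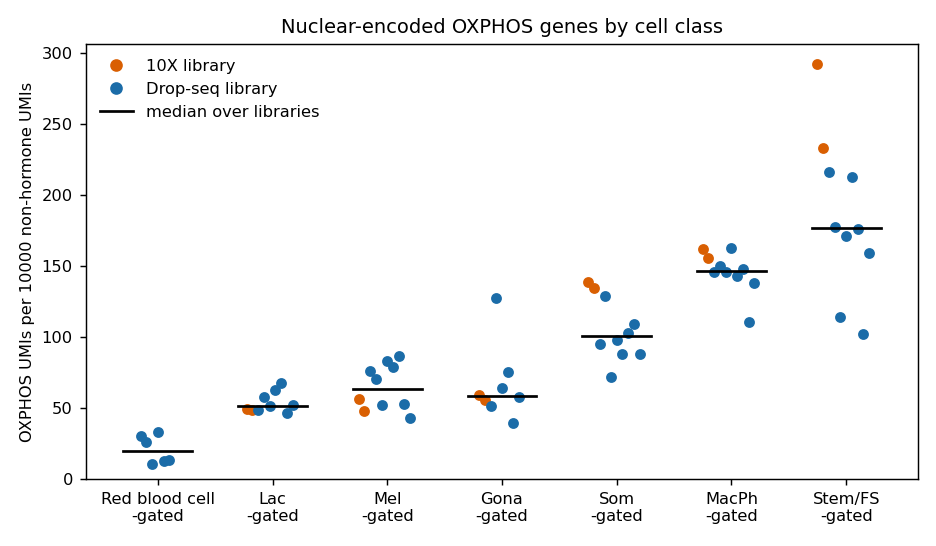
Summed level of the 100 genes (UMIs per 10000 non-hormone UMIs) in each gated class, with 1 point per library, orange for 10X and blue for Drop-seq, and the median over libraries as a bar. Lac points lie between 46.5 and 67.9, below every Som point, and Stem/FS points reach 292.

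Lac cells had lower levels of genes of complexes I, III, IV and V than Som cells of the same library over all cells of each gate. At a matched share of nuclear-retained RNA (described below) their summed level was below Som in 6 of 11 pairs (median ratio 0.979). In the edgeR quasi-likelihood test with library as a block, 61 of the 100 genes passed the filter on low counts. Of these 61, 45 were lower, 0 were higher and the median log2 fold change was -1.03, while of all 2852 genes tested 12.8% were lower and 8.13% higher, with a median of 0.03. Complex I had 20 lower of 28 tested, complex III 5 of 7, complex IV 8 of 10 and complex V 12 of 14, and of complex II 0 of 2 passed (0 at an unadjusted p under 0.05, and 0 by DESeq2). DESeq2 called 40 lower and 0 higher. The 3 largest differences were all in complex I. Ndufc1, a small accessory subunit, fell by 1.87 on the log2 scale (SE 0.28, adjusted p = 9.7e-07), Ndufa2 by 1.63 (SE 0.26, adjusted p = 2.1e-06) and Ndufa4, which is named for complex I and also found with complex IV, by 1.61 (SE 0.23, adjusted p = 4.5e-07). Ndufa4 stood at 0.82 to 3.04 per 10000 in Som and at 0.00 to 0.92 in Lac. Its lowest Som library (lactating replicate 1) lay within the Lac range, and within each of the 9 libraries Som was the higher. Cox4i1, the regulatory subunit of complex IV, fell by 1.22 (SE 0.20, adjusted p = 7.1e-06), from 1.98 to 4.36 in Som to 0.39 to 2.23 in Lac. Exceptions were present. Cox7c (log2 fold change -0.24, SE 0.21, adjusted p = 0.47) and Ndufaf4 (0.24, SE 0.21, adjusted p = 0.47) did not pass, nor did the complex II subunits Sdha (-0.42) and Sdhb (-0.26). With Drop-seq libraries alone 15 of 29 tested members were lower, beside 7.0% of all genes, and without the 10X female library 29 of 51, beside 9.13%.

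Gona cells, over all cells of the gate, had the same direction with fewer calls. At a matched share of nuclear-retained RNA (described below) their summed level was above Som in 7 of 10 pairs. Of 51 members tested, 17 were lower and 0 higher, with a median log2 fold change of -0.69, beside 9.0% lower and 7.62% higher of all 2400 genes (median 0.04). DESeq2 also called 17 lower. Uqcr11, a small subunit of complex III, fell by 1.45 (SE 0.39, adjusted p = 0.0083), Ndufb7 by 1.39 (SE 0.43, adjusted p = 0.024) and Cox8a, a small subunit of complex IV, by 1.26 (SE 0.23, adjusted p = 0.0002). Uqcr11 was at 0.627 to 2.5 per 10000 in Som and at 0.00 to 0.996 in Gona in 7 libraries, with 3.06 in the virgin library. Cox8a was at 1.88 to 4.84 in Som and at 0.55 to 1.79 in Gona, and its classes did not overlap. This count depended on the libraries, with 3 lower of 55 tested in Drop-seq alone, close to the 3.05% of all genes, 31 of 78 in 10X alone (7.93%) and 11 of 52 without the 10X female library (6.07%).

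Mel cells had lower nuclear-encoded genes and higher mitochondrial genes than Som cells over all cells of each gate. The nuclear direction was not kept in most pairs at a matched share of nuclear-retained RNA (described below), where the summed level of Mel was above Som in 10 of 14. By platform it was above in 9 of 11 Drop-seq pairs, and below in 2 of 3 pairs on 10X (median ratio 0.896). Of 68 members tested, 38 were lower and 1 higher (median log2 fold change -0.60), beside 12.4% lower and 12.5% higher of all 3662 genes (median -0.01). DESeq2 called 31 lower and 1 higher. The lower genes with the largest differences were Cox7a2l, which takes part in joining complexes III and IV into supercomplexes (fell by 1.5, SE 0.27, adjusted p = 4.2e-05), Ndufa5 (fell by 1.41, SE 0.26, adjusted p = 6.4e-05) and Atp5g1 (fell by 1.17, SE 0.21, adjusted p = 5.8e-05). Cox7a2l stood at 0.47 to 2.11 per 10000 in Som and at 0.00 to 0.72 in Mel, with overlap. The 1 higher gene was Ndufaf4, at 0.53 to 1.69 in Som and 0.91 to 3.43 in Mel (log2 fold change 0.76, SE 0.17, adjusted p = 0.00078), with overlapping ranges. In 10X alone its log2 fold change was 0.32 and did not pass. All 7 mitochondrial genes tested were higher, from mt-Nd5 (log2 fold change 1.00, SE 0.21, adjusted p = 0.00034) to mt-Co1, a catalytic subunit of complex IV (1.35, SE 0.20, adjusted p = 2.4e-06). The summed mitochondrial level was above that of Som in 7 of 10 libraries (median ratio 1.55) and, without the limit on the mitochondrial share, in 10 of 10 (median ratio 2.06). The nuclear sum was below Som in 10 of 10 libraries in either case. Among other lists, 1 of 9 citric acid cycle genes was higher (Dld, 0.59) and 0 lower, and of 5 glycolysis genes 0 passed edgeR (1 at an unadjusted p under 0.05, and 0 by DESeq2).

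Stem/FS cells had higher levels across all 5 complexes. Of 63 members tested, 54 were higher and 0 lower, with a median log2 fold change of 0.87, beside 29.6% higher and 29.0% lower of all 2067 genes (median -0.03). DESeq2 called 47 higher and 1 lower. Complex V had 12 higher of 12 tested, complex IV 10 of 11, complex III 6 of 7, complex I 25 of 31 and complex II 1 of 2. Ndufc2 rose by 1.68 (SE 0.21, adjusted p = 2.8e-09), Cox5a, a complex IV subunit, by 1.62 (SE 0.24, adjusted p = 1.6e-07) and Ndufb9 by 1.60 (SE 0.20, adjusted p = 1.4e-09). Cox5a stood at 0.23 to 1.28 per 10000 in Som and 0.95 to 2.25 in Stem/FS, with overlap, and Ndufc2 at 0.68 to 1.57 and 1.72 to 6.24, the latter without overlap. All 6 mitochondrial genes tested were higher (0.61 to 1.13). Of 6 glycolysis genes 5 were higher, among them Aldoc (5.20) and Ldhb (3.77), and the neuronal isoform Eno2 was lower (-2.10). With 10X libraries alone 26 of 80 tested were higher, beside 8.76% of all genes, where 28 and 26 cells carried the class.

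MacPh cells had 50 of 65 tested members higher and 2 lower, with a median log2 fold change of 0.77. This was over all cells of the gate. In the bin under 10% of nuclear-retained RNA (described below) the summed level of MacPh cells was below Som in 6 of 10 pairs (median ratio 0.88). Of all 2524 genes 38.0% were higher and 39.7% lower (median -0.03), and DESeq2 called 41 members higher and 2 lower. Cox5a rose by 1.96 (SE 0.19, adjusted p = 8.4e-12), Sdhd, a membrane anchor of complex II, by 1.62 (SE 0.22, adjusted p = 1.4e-08) and Cox4i1 by 1.59 (SE 0.15, adjusted p = 1.6e-12). Cox4i1 was at 5.22 to 8.58 per 10000 in MacPh, above each Som library. Lower were Ndufaf4, which fell by 1.19 (SE 0.26, adjusted p = 6.7e-05), from 0.53 to 1.69 in Som to 0.00 to 1.00 in MacPh, and Cox7c, which fell by 0.50 (SE 0.21, adjusted p = 0.03). In 10X libraries alone Cox7c changed sign, with a log2 fold change of 0.094, and Ndufa1, higher in all libraries together (0.47, SE 0.20, adjusted p = 0.033), was at -0.087 there. The mitochondrial genes did not follow. Of 6 tested, 1 passed (mt-Nd2, log2 fold change 0.36, SE 0.16, adjusted p = 0.033), and their summed level was below Som in 9 of 10 libraries (median ratio 0.826).

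**Figure D3:**
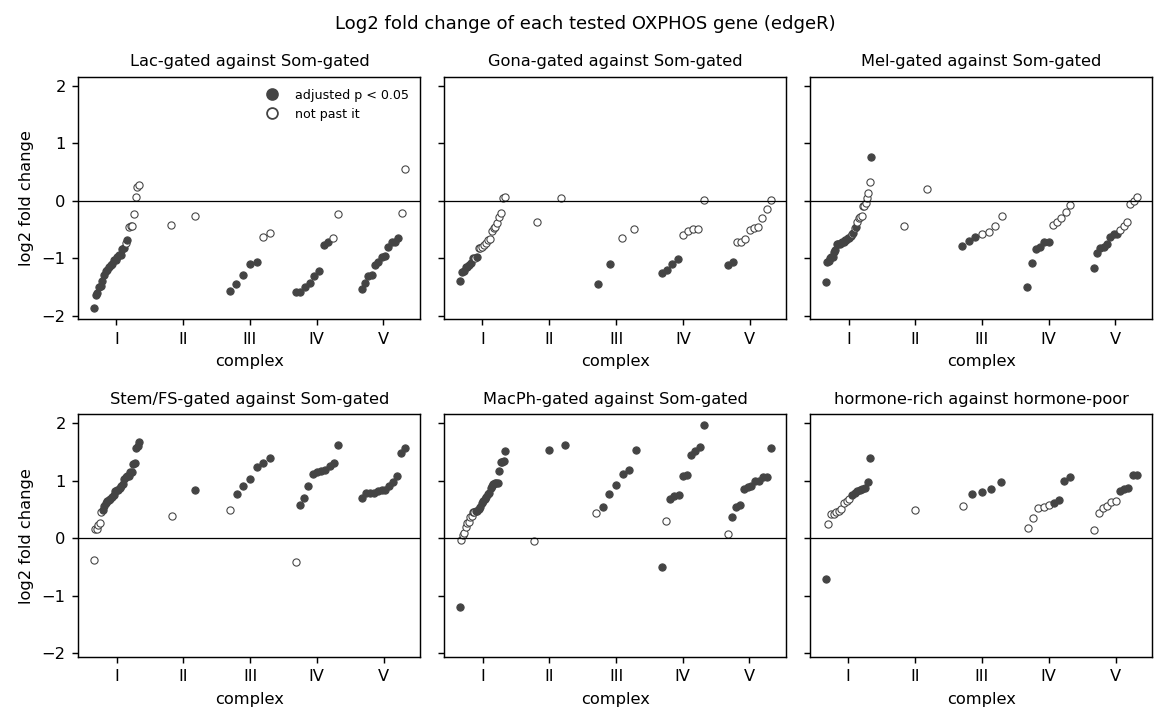
Log2 fold change of each tested gene by complex (x axis) in 6 edgeR comparisons, filled where the adjusted p was below 0.05. Most points lie below 0 in Lac, Gona and Mel, with medians of -1.03, -0.69 and -0.60, and above 0 in Stem/FS, MacPh and hormone-rich cells, with medians of 0.87, 0.77 and 0.65.

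Cells of the Som and Lac gates were also split by the share of their UMIs from hormone genes, into hormone-rich cells (at least 20%) and hormone-poor cells (under 10%). Hormone UMIs were outside the totals, so this share does not enter the levels by arithmetic. The sides differed in class, since Som cells made up 30.8% and 39.4% of the hormone-poor but 94.0% and 96.7% of the hormone-rich cells on 10X, and 56% to 88% against 78.3% to 92.7% in the Drop-seq libraries compared. The summed level was 204 in hormone-rich against 69.5 in hormone-poor cells of the 10X female and 158 against 98.0 in the 10X male. In Drop-seq the pairs were 213 and 58.0 (mt/hGRF), 75.3 and 73.4 (lactating replicate 1), 122 and 84.7 (lactating replicate 2), 139 and 96.5 (female replicate 1), 128 and 84.6 (female replicate 2) and 122 and 109 (male replicate 1). The virgin library had the reverse order, at 122 and 142. Hormone-rich cells were thus higher in 8 of 9 libraries, with a median ratio of 1.44. Of 44 members tested, 21 were higher and 1 lower (median log2 fold change 0.65), beside 16.9% higher and 10.7% lower of all 1525 genes (median -0.06). Ndufa1, a small complex I subunit, stood at 0.751 to 4.02 per 10000 in hormone-rich and 0.286 to 1.88 in hormone-poor cells of these libraries and rose by 1.40 (SE 0.27, adjusted p = 0.00027), Atp5f1 by 1.10 (SE 0.28, adjusted p = 0.0045) and Atp5o by 1.09 (SE 0.31, adjusted p = 0.009). Ndufaf4 was the 1 lower gene and fell by 0.72 (SE 0.26, adjusted p = 0.038), a call that DESeq2 did not make. All 6 mitochondrial genes tested were higher (0.96 to 1.21), and their sum was higher in 9 of 9 libraries (median ratio 2.32). The limit on the mitochondrial share was set on all UMIs, hormones included, and without it the sum was higher in 9 of 10 libraries (median ratio 2.02). Within Som cells alone, an alternative chosen after seeing the data, the summed level of the members was higher in hormone-rich cells in 5 of 8 libraries (median ratio 1.11, from 0.80 in the virgin library to 3.39 in mt/hGRF). On 10X it was 209 against 124 in the female and 160 against 168 in the male. Of 41 members tested there by edgeR, 0 passed, beside 6.83% higher and 2.08% lower of all 1201 genes. At an unadjusted p under 0.05 there were 5 (Atp5f1, Cox8a, Ndufa1, Ndufb2 and Ndufaf4), for which no share of all genes is given. DESeq2 gave 0 and 2. The median log2 fold change was 0.33, with 33 positive. In the mixed groups, hormone share and cell class cannot be told apart for the nuclear members. The mitochondrial sum was higher in 8 of 8 libraries within Som cells (median ratio 2.05). The summed red blood cell markers were also higher there in 8 of 8 libraries (median ratio 2.43), at 3.98 to 29.3 per 10000 in hormone-rich and 2.95 to 11.3 in hormone-poor Som cells, and ribosomal protein genes in 7 of 8 (1.23). Their part in these results was not tested. Calls on the nuclear members in the mixed groups also rested on few libraries. DESeq2 called 14 of 44, all higher, beside 13.8% higher of all genes. Drop-seq alone gave 2 higher of 34, below the 7.0% of all genes. With the stricter gate 0 of 49 were higher and 1 was lower. Calls in either direction were 6 of 40 members without the 10X female, beside 250 of all 1514 genes. Without the 10X male they were 13 of 40, beside 279 of 1504. Without the mt/hGRF library they were 12 of 44, with 1 lower, beside 350 of 1523. In the fit without the 10X female the members did not exceed the share of all genes.

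A class difference in these genes went together with a difference in nuclear-retained RNA. Malat1, Meg3 and Neat1, long RNAs that stay in or near the nucleus, together took 1863 and 2015 per 10000 non-hormone UMIs in Som cells of the 10X libraries and 607 to 1599 in those of the Drop-seq libraries. Relative to Som, their sum was higher in Lac cells in 9 of 9 libraries (median ratio 1.76), in Mel cells in 10 of 10 (1.72) and in Gona cells in 7 of 8 (1.32). It was lower in Stem/FS cells in 8 of 10 (0.613), in MacPh cells in 10 of 10 (0.244) and in hormone-rich relative to hormone-poor cells in 9 of 9 (0.556), also within Som cells alone, in 8 of 8 (0.729). Thus the classes with lower OXPHOS levels had more of these RNAs and the reverse. Malat1 alone was higher in Lac (log2 fold change 0.89, adjusted p = 4.3e-06) and Mel (1.07, adjusted p = 6.9e-08) and lower in MacPh (-1.60, adjusted p = 3.1e-09) by edgeR. The single RNAs did not all move alike, since in Stem/FS cells Meg3 was lower (-2.55) and Neat1 higher (3.07). Ribosomal protein genes, which share their small size and cytoplasmic mRNA with many OXPHOS genes, moved with the members, at median ratios to Som of 0.502 in Lac, 0.674 in Mel, 0.466 in Gona, 1.63 in Stem/FS and 2.57 in MacPh.

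Within Som cells alone, the summed OXPHOS level was lower in cells with a larger nuclear-retained share. In cells with under 10% the level was 286 and 329 in the 10X libraries and 123 to 269 in the 8 Drop-seq libraries. At 10 to 20% it was 104 and 136 on 10X and 33.3 to 54.8 by Drop-seq, and at 20 to 30% it was 57.7 and 60.4 on 10X. The same order held in both 10X libraries, and the Drop-seq ranges under 10% and at 10 to 20% did not overlap. These RNAs are part of the totals. With them left out of the totals the level on 10X was 297 and 341 under 10% and 76.5 and 80.2 at 20 to 30%, and by Drop-seq 129 to 284 under 10% and 38.5 to 65.1 at 10 to 20%, in the same order. Depth per cell and the amount of cytoplasm in a droplet were not separated from this share.

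**Figure D4:**
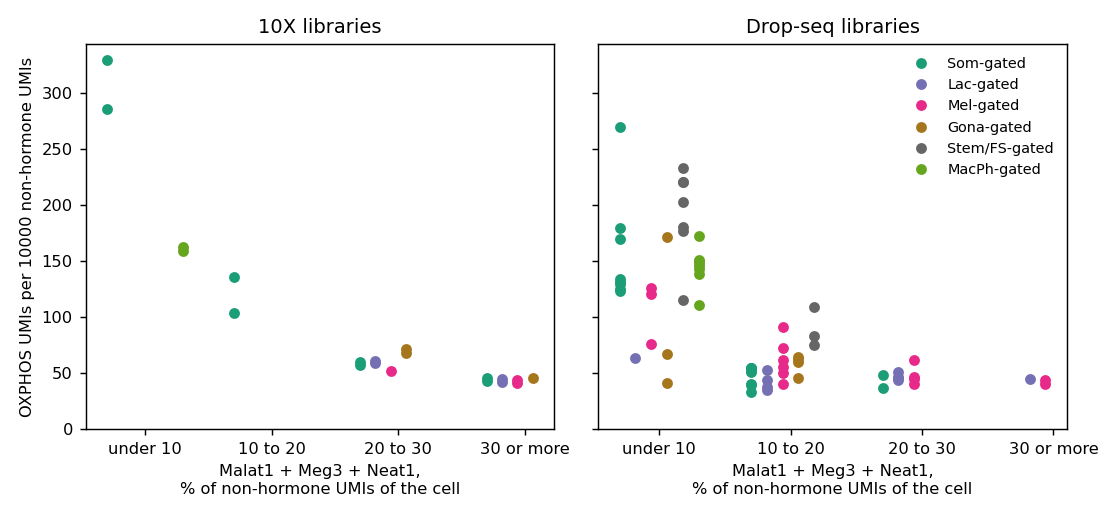
Summed level of the 100 genes (UMIs per 10000 non-hormone UMIs) against the share of Malat1, Meg3 and Neat1 in the cell, in 4 bins, with 1 point per library and class of at least 20 cells, for 10X (left) and Drop-seq (right). Som levels fall from bin to bin, on 10X from 286 and 329 in the first bin to 43.1 and 46.0 in the last.

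Compared in the same library and the same bin, most class differences were smaller. Over 11 such pairs the Lac level was 0.979 of the Som level by the median, below it in 6 and above it in 5, and on 10X the 4 pairs had ratios of 0.908 to 1.04. Mel cells had a median ratio of 1.03 over 14 pairs and were above Som in 10, and Gona cells had 1.12 over 10 pairs and were above in 7. The bin under 10% differed from the rest, with Gona below Som in 3 of 3 pairs (0.331 to 0.959), Mel below in 2 of 3 (0.614 to 1.01) and Lac below in its 1 pair (0.517). Stem/FS cells kept a higher level, with a median ratio of 1.38 over 10 Drop-seq pairs and above Som in 8. MacPh cells could be compared in the bin under 10% alone, where they were below Som in 6 of 10 libraries, with 0.495 and 0.556 of the Som level on 10X and 0.641 to 1.19 by Drop-seq. Hormone-rich cells, Som and Lac gates together, were above hormone-poor cells in 9 of 11 pairs, with a median ratio of 1.27, but in the bin under 10% in 2 of 4 (0.66 to 2.09). These ratios are descriptions, with few cells in some bins. A matched share here means the same bin, and within a bin the classes can still differ in that share.

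The tests were repeated on cells with 10 to 30% of nuclear-retained UMIs, an alternative chosen after seeing the data. Few members passed the low-count filter there. For Lac against Som, 3 members were tested and 0 passed, beside 5.01% of all genes, for Gona 6 and 0 (8.15%), and for hormone-rich cells 10 and 0 (5.05%). For Mel, 9 were tested and 2 passed as higher, beside 10.1% higher and 7.41% lower of all genes, where Cox4i1 and Cox8a had log2 fold changes of 0.38 and 0.17 in place of -0.81 and -0.72. For Stem/FS, 19 were tested and 5 passed as higher, beside 9.85% higher of all genes. MacPh had too few cells in that range for a fit.

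Sex was compared in the 6 WT 8-week libraries with platform as a term. In Som cells the summed level ran from 88.4 to 138.5 in the 3 female libraries and from 88.1 to 134.6 in the 3 male ones, with overlap. Of 72 members tested by edgeR, 0 passed and 0 had an unadjusted p under 0.05, with a median log2 fold change (female over male) of 0.07, beside 0.162% called of all 4313 genes. In Lac cells the females ran from 46.5 to 67.9 and the males from 49.0 to 52.1, and of 7 members tested 0 passed and 0 had an unadjusted p under 0.05, beside 0.805% of all genes. DESeq2 called 0 in both classes and gave 0 at an unadjusted p under 0.05. In simulated data for the Som comparison, 93% of 4-fold and 52% of 2-fold changes were recovered, and in Lac 82% and 27%.

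Lactation was compared in the 13-week libraries, where the virgin group has 1 library, so that its spread is assumed to be that of the other Drop-seq groups. Over all Som cells the lactating libraries had 72.3 and 98.3 per 10000 and the virgin library 128.7, a ratio of means of 0.663 with no overlap. At a matched share of nuclear-retained RNA this difference was not kept. In Som cells under 10% the lactating libraries had 132 and 269 and the virgin library 179. At 10 to 20% they had 54.4 and 54.8, and the virgin library 54.4. Of 80 members tested, 10 had a positive log2 fold change, and the median was -0.50, where the median of all 7101 genes was 0.01. By edgeR, 0 members passed and 5 had an unadjusted p under 0.05, beside 0.0282% called of all genes, and DESeq2 gave 0 in either count. The 5 were Ndufa9, Ndufa7, Uqcrq, Atp5h and Ndufa4, all lower (log2 fold changes -1.93 to -0.91, each with an edgeR adjusted p of 1). The share of all genes given above is of called genes, and none is given at the unadjusted threshold. Ribosomal protein genes had a median of -0.36, and the nuclear-retained sum was 1273 and 1599 per 10000 in the lactating and 875 in the virgin library. The mitochondrial sum overlapped, at 69.1 and 83.1 against 82.7. In cells of the Lac gate the OXPHOS sums were 51.5 and 62.8 against 58.3, with overlap. There, 0 of 16 tested members passed and 0 had an unadjusted p under 0.05 (DESeq2 also 0), beside 0.104% called of all genes, with a median of 0.35. Recovery of simulated 2-fold changes was 10% in either class and of 4-fold changes 74% in Som and 58% in Lac, so that a 2-fold change in single genes was mostly not detectable.

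The mt/hGRF library was compared with the Drop-seq libraries of WT 8-week females. In Som cells, the target of growth hormone releasing hormone, its summed level of 95.4 lay between those of the WT libraries, 88.4 and 109.2. Free RNA was estimated at 31.6% in the mt/hGRF library and at 8.18% and 1.95% in WT. With it subtracted, the summed level was 110.9 against 84.8 and 109.5, and so just above both. The free RNA profiles came from barcodes below the cell limits. In the mt/hGRF library these were 206 barcodes with a mean of 267 UMIs. In WT they were 1275 and 3214 barcodes, with means of 188 and 92.0 UMIs. Whether these barcodes were empty droplets was not tested, and the profiles may differ in kind between libraries. The move to just above both is therefore a description only. At a matched share of nuclear-retained RNA, without that subtraction, the summed level in Som cells was above both WT libraries. It was 170 against 134 and 123 in cells under 10%, and 51.8 against 40.6 and 33.3 at 10 to 20%. Of 80 members tested, 0 passed edgeR and 3 had an unadjusted p under 0.05 (Atp5g1, log2 fold change 1.79, Cox6c, 0.91, and Ndufa10, -1.66), beside 0.0704% called of all genes, with a median of 0.09. In Lac cells the level was 48.9 against 46.5 and 67.9. Of 16 members tested, 0 passed and 1 had an unadjusted p under 0.05 (Ndufb11, 2.28), beside 0.261% of all genes. DESeq2 gave 0 in both counts and both classes. The mitochondrial genes were at 129 per 10000 in Som cells of the mt/hGRF library, above 61.2 and 67.4 in WT, and at 81.3 in Lac cells, above 28.5 and 41.2. Of the single mitochondrial genes, mt-Nd1 passed in Lac cells (log2 fold change 1.84, SE 0.48, adjusted p = 0.044) and not in Som cells (1.61, SE 0.41, adjusted p = 0.17). This is the library in which the mitochondrial limit removed most barcodes, and its part in these levels was not tested. The shares of all genes given above are of called genes, and none is given at the unadjusted threshold. With 1 transgenic library, the genotype and the library cannot be told apart. In simulated data, 51% of 4-fold and 7% of 2-fold changes were recovered in Som cells.

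**Figure D5:**
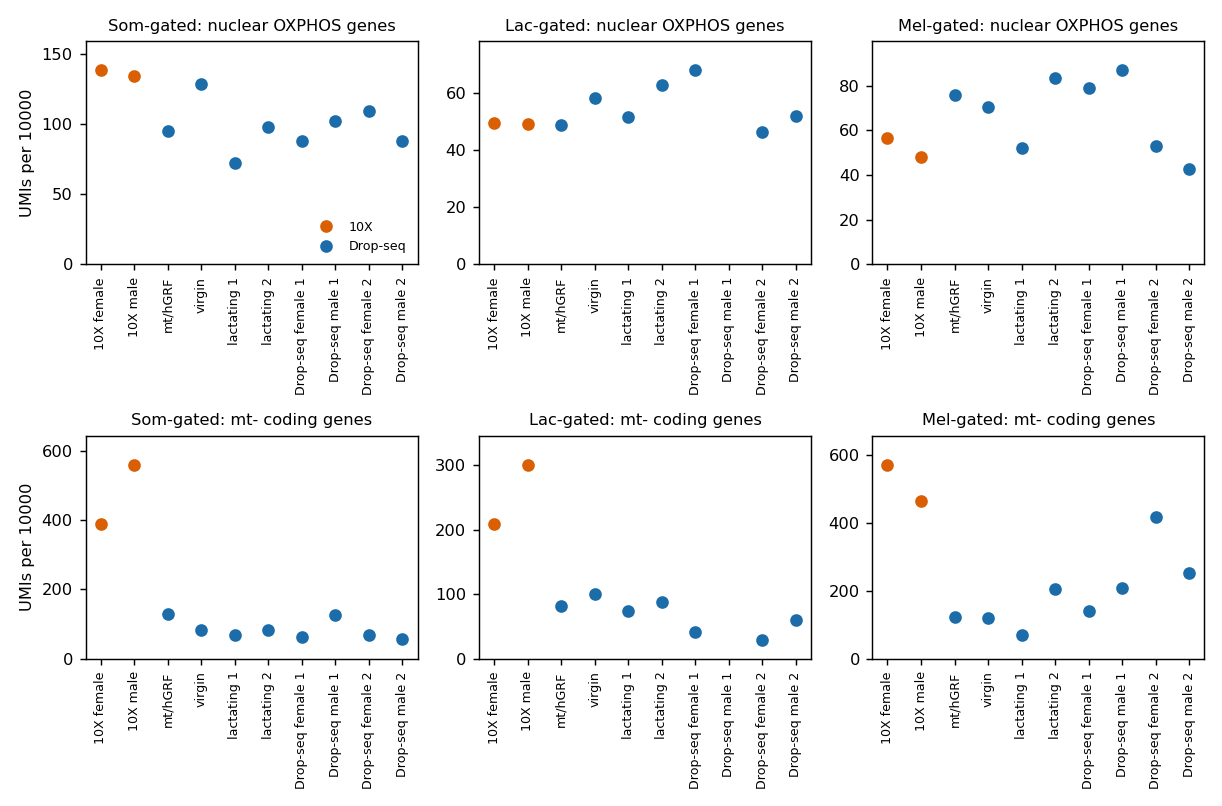
Summed levels (UMIs per 10000 non-hormone UMIs) of the 100 nuclear-encoded genes (top) and the 13 mitochondrial coding genes (bottom) in Som, Lac and Mel cells of each library, orange for 10X and blue for Drop-seq. Nuclear levels in Som cells run from 72.3 to 138.5, and mitochondrial levels from 57.9 to 129 in Drop-seq and 389.7 and 560.5 in 10X.

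Several of the genes named above lie in GRCm38 (GENCODE vM21 annotation) as follows. Ndufc1 lies on chromosome 3 from 51404677 to 51408988 and Ndufa4 on chromosome 6 from 11900292 to 11907497. Cox4i1 lies on chromosome 8 from 120668222 to 120674207, Cox5a on chromosome 9 from 57521274 to 57532426 and Cox7a2l on chromosome 17 from 83501918 to 83517330. Ndufaf4 lies on chromosome 4 from 24898083 to 24905001 and Atp5g2 on chromosome 15 from 102662864 to 102672352. The tables give counts by symbol and hold no position within a gene.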

How the data were processed

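The deposited files were tables of raw UMI counts per gene and barcode, which the authors made with Cell Ranger for 10X and with STAR 2.5.2a for Drop-seq on mm10, per the submitters' processing notes. The Cell Ranger version is not given in the sources used here. Genes and gene lists were chosen with earlier results of these data known. Kept cells had at least 300 UMIs and 100 to 4000 genes (Drop-seq) or over 200 and under 3000 genes (10X), and a mitochondrial share under 0.1. A gate gave a cell the class whose marker UMIs had the smallest Poisson tail against their rate in the library, where that tail was under 0.02 and that of the next class was over 5 times larger. No doublet caller was run. Counts were summed per library and class, and library sizes left out the 7 hormone genes.

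Sums were tested with edgeR 4.0.16 (quasi-likelihood, TMM, filterByExpr, R 4.3.3), with library as a block between classes, platform as a term for sex, and all 8 Drop-seq libraries sharing the spread for lactation and the transgene. P-values were adjusted by Benjamini-Hochberg over all genes tested, and genes with an adjusted p under 0.05 are called higher or lower. Shares of all genes set beside the members count these calls. DESeq2 1.42.0 was an alternative. The fits were tested on simulated data, with changes placed in genes above the median level of the comparison. Named genes were the 2 members of each complex with the highest mean, the isoforms with tissue-restricted partners, the c subunit genes and the 3 called members with the largest difference in each direction per comparison. Sums over genes, levels and ratios carry no test. The titles of a female and a male Drop-seq library share a number whose meaning the labels do not give, and it was tried as a replicate block. Alternatives on table size, on nuclear-retained share and on Som cells alone for the hormone split were chosen after seeing the data.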

Additional observations from a re-analysis of the deposited data

Results flagged for a closer look

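In 2 sums, the mt/hGRF library lay on opposite sides of both WT 8-week female Drop-seq libraries in different classes. These differences between classes were not tested, and they rest on 1 transgenic library.

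The summed level of complex V genes was 0.914 times the WT mean in Som cells and 0.676 times in Lac cells, but 1.17 times in Mel cells. The values were 21.7 against 23.6 and 23.8 per 10000 in Som, 11.7 against 13.5 and 21.2 in Lac, and 17.2 against 14.2 and 15.4 in Mel. The summed level of the 13 mitochondrial coding genes was 2.0 times the WT mean in Som cells and 2.34 times in Lac cells, but 0.438 times in Mel cells. In Mel cells the WT libraries differed widely, at 142 and 418 per 10000 against 123 in the mt/hGRF library. The nuclear-retained sum was above both WT libraries in all 3 classes, at 1.5, 1.48 and 1.43 times the WT mean, and its part in these values was not tested.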

How the results depend on the processing

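Condition calls stayed at 0 in every alternative run, and with the replicate block for sex they were 0 in Som and 0 in Lac cells, so that the block changed no call. Class counts depended on the libraries used, and the cause was not tested.

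With Drop-seq libraries alone, the members called were 15 of 29 tested for Lac (45 of 61 with all libraries), 3 of 55 for Gona (17 of 51), 16 of 67 for Mel (39 of 68) and 2 of 34 for hormone-rich cells (22 of 44). Of all genes, 7.0%, 3.05% and 8.86% were lower in those classes and 7.0% higher in hormone-rich cells, so that the members of Gona and hormone-rich cells lay near the share of all genes. With 10X alone they were 31 of 78 for Gona (7.93% of all genes lower) and 26 of 80 for Stem/FS (8.76% higher), which had 54 of 63 with all libraries. Tables with under 30000 symbols gave 10 of 29 for Lac, 0 of 49 for Gona, 8 of 68 for Mel and 0 of 38 for hormone-rich cells, beside 4.51%, 1.5% and 6.48% of all genes lower and 2.43% higher. Tables with over 30000 gave 9 of 51, 7 of 58, 10 of 57 and 0 of 10, beside 2.98%, 3.83% and 4.22% lower and 3.02% higher. Those also gave 11 higher of 59 tested for Stem/FS, beside 14.7% of all genes, and 18 higher of 54 for MacPh, beside 30.9%. With all libraries 50 of 65 were higher in MacPh. The band of 10 to 30% nuclear-retained UMIs gave 0 of 3 for Lac, 0 of 6 for Gona and 0 of 10 for hormone-rich cells. It gave 2 of 9 for Mel and 5 of 19 for Stem/FS, with the shares of all genes as given above. Counts that follow are in either direction, with all genes called in brackets. Without the low-count filter they were 49 of 92 for Gona (1285 of 18761 genes) and 7 of 91 for hormone-rich cells (446 of 18131). For Stem/FS they were 31 of 92, with 3 lower (3921 of 19503). With at least 600 UMIs per cell Gona had 26 of 56 (444 of 2285). Hormone-rich cells had 14 of 44 by DESeq2 (360 of 1525) and 44 of 57 with the looser gate (723 of 2047). They had 1 of 49, lower, with the stricter gate (117 of 1527) and 0 of 41 within Som-gated cells alone (107 of 1201). Leaving out each group of libraries gave 29 to 50 for Lac, 11 to 24 for Gona and 27 to 44 for Mel. It gave 47 to 51 for Stem/FS, 45 to 55 for MacPh and 6 to 31 for hormone-rich cells. The members tested and the share of all genes called changed between these fits and are not given for each. These ranges are therefore counts only and not a result about the members. Hormone-rich cells had 13 of 40 without the 10X male (279 of 1504) and 12 of 44 without the mt/hGRF library (350 of 1523). The lowest counts for Lac, Gona and hormone-rich cells came without the 10X female, at 29 of 51, 11 of 52 and 6 of 40. All genes called there were 357 of 2389, 282 of 2489 and 250 of 1514.

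Of the named genes, 7 log2 fold changes turned sign. In the 10 to 30% band Cox4i1 was at 0.38 and Cox8a at 0.17 in Mel. In tables with over 30000 symbols Cox7a2l was at -0.23 and Ndufa5 at -0.041 in Stem/FS, and Ndufa1 at -0.41 in MacPh. With 10X alone Cox7c was at 0.094 and Ndufa1 at -0.087 in MacPh. Of the other values of named genes, 1776 kept their side of the threshold and the rest lost their call. The summed 10X level in Som, 136.6 per 10000, became 131.3 with subunits only, 131.7 with free RNA subtracted and 126.2 without the mitochondrial limit. In Lac, 49.3 became 45.7, 42.9 and 51.6, and in Mel 52.3 became 44.9 with free RNA subtracted. With Ndufa4 counted in complex IV, the Som levels on 10X moved from 50.9 to 48.2 for complex I and from 30.8 to 33.5 for complex IV.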
